A study of Bos indicus x Bos taurus with 11 samples.

Results

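The genes of the cytosolic ribosomal proteins were examined in skin fibroblasts of control bovine fetuses and of fetuses with LOS (large offspring syndrome, an overgrowth disorder of cattle seen after assisted reproduction). Members were taken by symbol: RPL or RPS with a number and at most a short suffix letter, plus RPLP0, RPLP1, RPLP2 and RPSA, with the kinase genes RPS6K left out. This gave 81 genes of 27398 rows in the count table, of which 21862 rows are annotated genes. The members lie on 28 chromosomes of the build ARS-UCD1.2, and 80 of them had enough counts to be tested. All 11 fetuses were F1 hybrids of Brahman and Angus cattle at day 105 of gestation, and 1 total RNA library, depleted of ribosomal RNA, was made from the cultured cells of each. The control group held 5 fetuses (females 1 and 2, males 3, 4 and 5) from artificial insemination. The LOS group held 6 fetuses (females 1, 2 and 3, males 4, 5 and 6) from assisted reproduction whose body weight exceeded the 97th centile of controls. LOS fetuses therefore differed from controls in the method of conception as well as in weight, and the contributions of each cannot be told apart here. The cells were primary cultures grown in 10% serum, so the values describe cultured fibroblasts and not skin.

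Ribosomal proteins and ribosomal RNA form the ribosome, the particle that translates mRNA into protein. Proteins named RPS belong to the small subunit, which reads the mRNA, and proteins named RPL belong to the large subunit, which joins amino acids. Their mRNAs are abundant in growing cells and begin with a 5′ terminal oligopyrimidine (TOP) tract, through which the kinase mTOR controls their translation. When assembly of the ribosome fails, RPL5 and RPL11 together with 5S ribosomal RNA can bind MDM2 and thereby stabilise p53.

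Total expected counts per library ran from 12084724 in LOS 1 to 19297095 in LOS 6. The summed level of 10 fibroblast markers was 57039 to 71914 CPM (counts scaled to a common normalised library size) in controls and 57523 to 72048 CPM in LOS. Markers of other cell types were low: the summed level reached at most 22.2 CPM for 8 keratinocyte, 5.26 CPM for 7 endothelial, 2.27 CPM for 6 leukocyte, 0.635 CPM for 3 muscle and 1.64 CPM for 2 erythroid genes. Most of the keratinocyte maximum came from CDH1 in LOS 1, at 21.2 CPM. In the other libraries CDH1 had 0.053 to 9.10 CPM. The 4 melanocyte and Schwann cell genes summed to 49.6 to 326 CPM in the controls and 57.8 to 139 CPM in LOS. Several defining markers, among them EPCAM, PTPRC, SOX10 and MYOD1, had no row under these symbols and so could not be assessed.

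Together the ribosomal protein genes took about 3% of each library. Their share of all counts was 2.99%, 3.28%, 3.15%, 2.95% and 3.11% in controls 1 to 5. In LOS 1 to 6 it was 2.74%, 3.55%, 3.61%, 3.14%, 3.43% and 3.35%. LOS 1 was thus the lowest library of all, LOS 4 lay within the control range, and the other 4 LOS libraries lay above every control. The share averaged 3.30% ± 0.323 (SD, n = 6) in LOS and 3.10% ± 0.134 (SD, n = 5) in controls, a difference of 0.207 percentage points that is within the spread of the LOS libraries. With single libraries left out, the difference ran from 0.145 (without LOS 3) to 0.320 percentage points (without LOS 1). No test was made of this share, because the members were chosen with results of these data known.

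**Figure D1:**
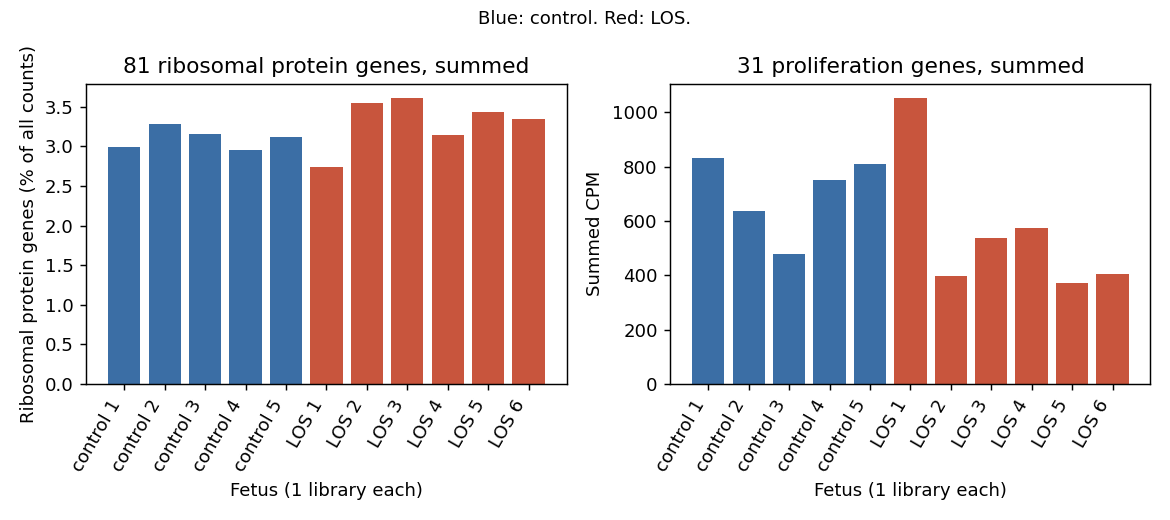
Left, counts of the 81 ribosomal protein genes as a percentage of all counts in each library; right, the summed CPM of 31 proliferation genes in the same libraries, with controls in blue and LOS in red. LOS 1 has the lowest ribosomal protein share (2.74%) and the highest proliferation sum (1052 CPM).

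The ribosomal protein values were set beside the reads of proliferation genes in the same libraries. The summed level of 31 proliferation genes was 831, 637, 479, 751 and 810 CPM in controls 1 to 5 and 1052, 396, 538, 573, 373 and 405 CPM in LOS 1 to 6. LOS 1 stood at opposite ends of the 2 measures, and in controls the library with the fewest proliferation reads, control 3, had 46 of the 80 tested members above their own mean. The count of members above their own mean was 5, 30, 46, 1 and 37 in controls 1 to 5 and 3, 76, 76, 52, 76 and 60 in LOS 1 to 6. Controls 4 and 5 differed widely in this count (1 and 37) at proliferation sums of 751 and 810 CPM. The part of proliferation in the ribosomal protein values was not tested.

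Among the members that took the most reads were RPS2, RPLP0, RPSA, RPL4, RPL10, RPL5, RPL3, RPS4X and RPS12. CPM grow with transcript length, which the files used here do not give, so this order is one of reads and not of transcript numbers. Mean CPM over the 11 libraries ran from 14.9 to 1656 among the tested members, with a median of 372. RPS2, a small subunit protein near the channel where mRNA enters, averaged 1573 ± 93.9 CPM (SD, n = 5) in controls and 1725 ± 189 CPM (SD, n = 6) in LOS. RPSA, a small subunit protein also known as the laminin receptor, averaged 1010 ± 72.1 CPM and 1141 ± 131 CPM. RPL4, which lines the tunnel through which the new protein leaves, averaged 953 ± 145 CPM and 1005 ± 108 CPM. RPL3, a protein near the peptidyl transferase centre, averaged 684 ± 61.4 CPM and 749 ± 91.5 CPM. For each of these genes the difference between the group means was smaller than the sum of the SDs, and the groups overlapped.

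Most members lay slightly higher in LOS, and none passed the test. Of the 80 tested members, 77 had a fitted log2 fold change (LOS minus control, with sex in the model) above 0, where 49.8% of all 16946 tested genes did. The median over the members was 0.15 (quartiles 0.12 and 0.18) on the log2 scale, beside -0.00 over all genes. Of the members above 0, 12 lay below 0.1, 50 between 0.1 and 0.2, and 15 at 0.2 or more, so the differences were small. Members share libraries and scaling, so their number is not a number of replicates. In bulk RNA, more cells of a type and more RNA per cell cannot be told apart.

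The edgeR quasi-likelihood test, adjusted after Benjamini-Hochberg, called 0 of the 80 members, as it called 0 of 16946 genes (0%), and the smallest adjusted p of a member was 0.932. DESeq2 and limma voom also called 0 members (0.0296% and 0% of all genes). At an unadjusted edgeR p under 0.05 there were 2 of 80 members higher in LOS, RPS24 and RPS16, and 0 lower, beside 2.48% and 1.95% of all genes. The share of members higher in LOS at this level was thus near that of all genes. In 0 members did the LOS and control libraries separate fully, beside 0.0944% of all genes higher and 0.136% lower in LOS. All 6 LOS libraries lay above the control median in 3 members, 5 did in 61 members, 4 in 12 members, 3 in 2 members and 2 in 2 members. Without LOS 1 the count of higher members stayed at 77, the median was 0.20, the smallest adjusted p of a member was 0.345 and 0 members were called. Without LOS 2 the count was also 77, and the median fell to 0.11. These 2 fits gave the highest and the lowest median of those that left out 1 library. The p-values set the fitted group difference against the variation between these 11 fetuses that is left after sex and group.

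**Figure D2:**
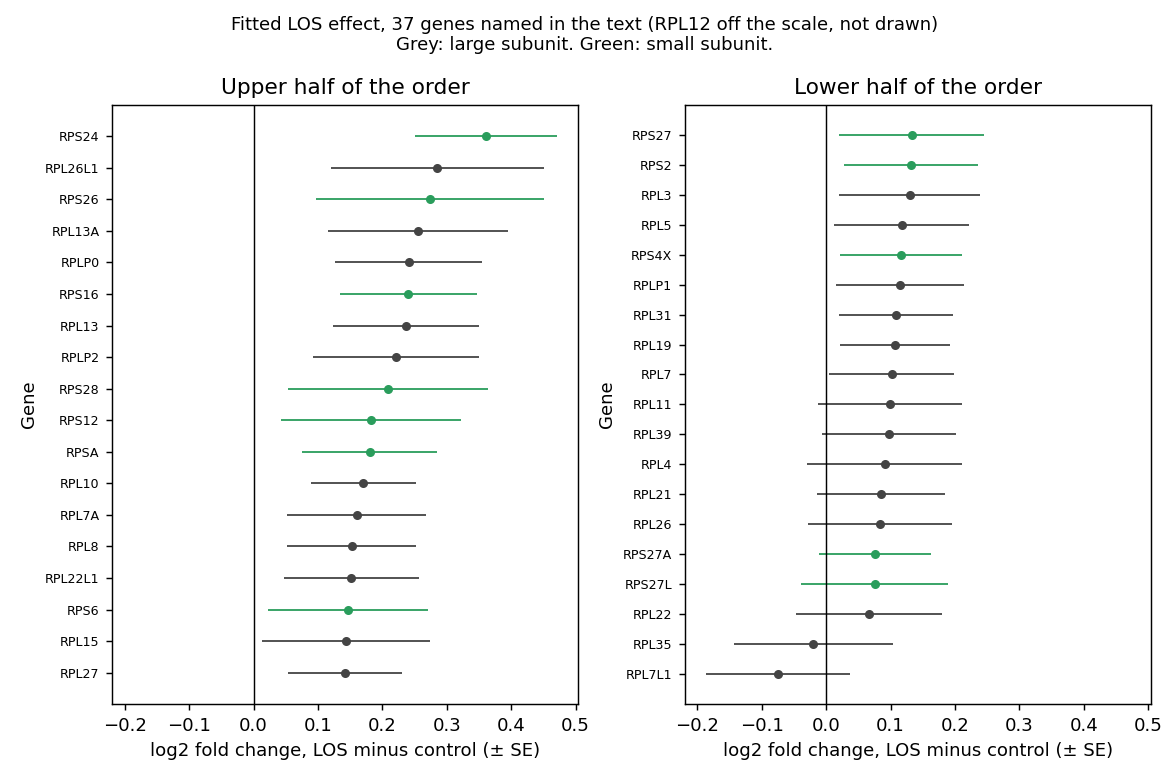
Fitted log2 fold change of LOS minus control with its standard error for 37 ribosomal protein genes described in the text, in order of size, large subunit genes in grey and small subunit genes in green; RPL12, at -0.79 ± 2.11, is off the scale and not drawn. All points but RPL7L1 and RPL35 lie right of 0, up to 0.36.

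Among small subunit genes, all 31 tested (paralogs with an L suffix set apart) were above 0, with a median log2 fold change of 0.17 and a range of 0.07 to 0.36. RPS24 (chromosome 28, 33725323 to 33730703, plus strand), needed for processing of the small subunit RNA precursor, stood at 277, 261, 278, 216 and 274 CPM in controls 1 to 5 and at 276, 371, 315, 330, 394 and 323 CPM in LOS 1 to 6. LOS 2 to 6 lay above every control, and LOS 1 lay among the controls. The fitted log2 fold change was 0.36 ± 0.11 (SE) with an unadjusted p of 0.00738 and an edgeR quasi-likelihood p of 0.932 after Benjamini-Hochberg adjustment. RPS16 (chromosome 18, 49122734 to 49125200, minus strand), whose tail reaches the peptidyl site, stood at 430, 500, 492, 413 and 418 CPM in the controls and at 418, 560, 590, 534, 536 and 557 CPM in LOS. Again LOS 2 to 6 exceeded all controls while LOS 1 did not. The log2 fold change was 0.24 ± 0.11 (SE), with an unadjusted edgeR p of 0.0454 and an adjusted p of 0.932. LOS 1 was set apart after its values were seen. The share of all tested genes that separate without LOS 1 was not counted, for these genes or those below.

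In other small subunit genes the groups lay closer together. RPS6, the target of the S6 kinases downstream of mTOR, averaged 476 ± 63.2 CPM in the controls and 523 ± 73.3 CPM in LOS (0.15 ± 0.12). RPS12 averaged 606 ± 111 CPM and 678 ± 99.2 CPM (0.18 ± 0.14). In both genes the groups overlapped.

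RPS26, which sits where mRNA leaves the small subunit, varied most between fetuses of the small subunit genes. It stood at 264, 402, 300, 288 and 315 CPM in controls 1 to 5 and at 247, 431, 424, 297, 446 and 432 CPM in LOS 1 to 6. Control 2 lay with the higher LOS libraries, and LOS 1 and LOS 4 lay with the lower controls, so that the log2 fold change of 0.27 ± 0.18 (SE) was no larger than the spread. RPS28, a neighbour of the mRNA exit site, behaved alike, with control 2 highest of the controls at 138 CPM, LOS 2 highest of all at 165 CPM and LOS 1 lowest of all at 85.8 CPM. RPS27A, made as a fusion with ubiquitin, varied little: 209 to 258 CPM in the controls and 222 to 272 CPM in LOS.

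Among the 45 large subunit genes, 43 were above 0, with a median log2 fold change of 0.14. RPLP0 (chromosome 17, 62557773 to 62561795, minus strand), the base of the stalk that recruits elongation factors, stood at 904, 1089, 1087, 992 and 1069 CPM in the controls and at 922, 1330, 1244, 1107, 1333 and 1311 CPM in LOS. LOS 2 to 6 exceeded every control, and LOS 1 lay above control 1 alone (log2 fold change 0.24 ± 0.11, unadjusted p = 0.0577). RPLP1 and RPLP2, the other two stalk proteins, had log2 fold changes of 0.11 ± 0.10 and 0.22 ± 0.13, so that all 3 stalk genes lay above 0, none of them past the test.

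RPL13 followed the same ordering, at 386, 391, 389, 344 and 428 CPM in the controls and 343, 528, 435, 453, 462 and 506 CPM in LOS (0.24 ± 0.11). LOS 2 to 6 lay above all controls and LOS 1 was the lowest library. RPL13A, a large subunit protein also known from translational control in interferon-treated myeloid cells, averaged 471 ± 63.4 CPM and 560 ± 90.3 CPM (0.26 ± 0.14). Neither gene passed the test.

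The p53-linked pair RPL5 and RPL11, which carry 5S ribosomal RNA, lay below the family's median of 0.15, by less than their SE. The family's quartiles were 0.12 and 0.18, with RPL5 close to the lower one and RPL11 below it. RPL5 stood at 666, 719, 720, 608 and 778 CPM in the controls and 590, 772, 818, 765, 777 and 803 CPM in LOS (log2 fold change 0.12 ± 0.11). LOS 1 was the lowest library, and control 5 lay among the other LOS libraries. RPL11 averaged 312 ± 26.6 CPM in the controls and 334 ± 44.3 CPM in LOS (0.10 ± 0.11). Of 9 genes listed here as mutated in Diamond-Blackfan anaemia, a human disorder of ribosome assembly, 9 lay above 0, as did 77 of the 80 tested members. The list was not meant to be complete. Its median log2 fold change was 0.14, with a range of 0.07 to 0.36, beside the family's median of 0.15.

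**Figure D3:**
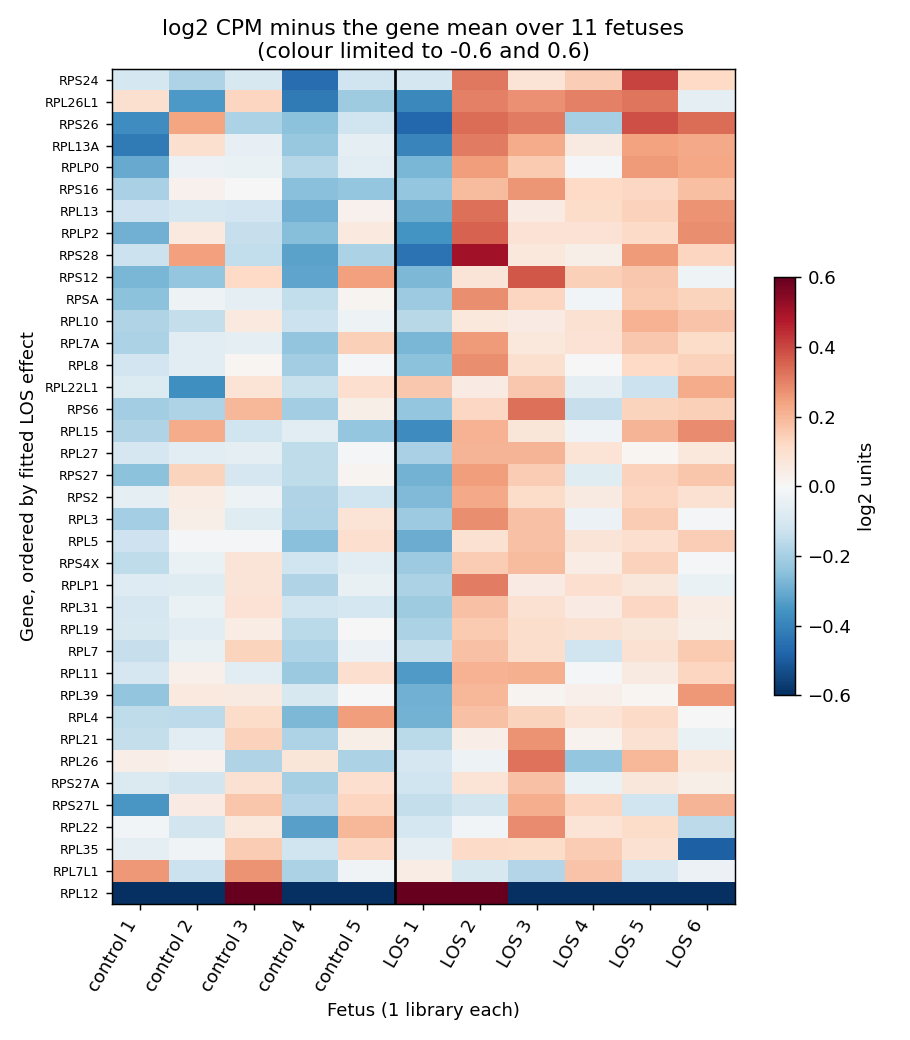
log2 CPM of 38 ribosomal protein genes described in the text, each minus its mean over the 11 fetuses, with genes in rows ordered by the fitted LOS effect and fetuses in columns (colour from -0.6 in blue to 0.6 in red, controls left of the line). LOS 1 and control 4 are blue and LOS 2, 3 and 5 are red for most genes.

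The members varied from fetus to fetus largely together. Over the 11 libraries the median pairwise correlation of log2 CPM between members was 0.742, and 95.1% of pairs were positive; the points share library, scaling and culture, and the value is a description. It was 0.745 within the large subunit genes and 0.777 within the small subunit genes, beside 0.154 for 78 mitochondrial ribosomal protein genes, 0.517 for 18 other TOP mRNAs, 0.677 for 50 ribosome assembly genes and 0.713 for the proliferation genes. The lowest value of a member lay in LOS 1 for 46 members, in control 4 for 22, in control 1 for 7 and in control 2 for 3. The highest lay in LOS 2 for 38 members, in LOS 3 for 19 and in LOS 5 for 10. The ratio of summed large to summed small subunit CPM was 1.38 ± 0.0204 (SD, n = 5) in controls and 1.36 ± 0.0245 (SD, n = 6) in LOS, a difference within the spread of either group.

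The SD of log2 CPM over all fetuses had a median of 0.18 and was under 0.25 in 74 of 80 members. The steadiest genes were RPL19, RPS27A, RPL31 and RPL27. RPL19, which reaches across to the small subunit, stood at 476 to 549 CPM in the controls and 467 to 594 CPM in LOS, and LOS 1 was again the lowest library. RPL31 and RPL27 had log2 fold changes of 0.11 ± 0.09 and 0.14 ± 0.09. The gene most like the rest was RPL8, a protein of the peptidyl transferase region, whose correlation with the mean of the other members was 0.968 (n = 11 libraries). The least like were RPL7L1 at -0.183, RPL12 at 0.00535, RPL26 at 0.165, RPL22L1 at 0.234 and RPL35 at 0.267.

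The members below 0 were RPL35, RPL7L1 and RPL12. RPL35, which lies at the exit of the protein tunnel, stood at 395, 405, 457, 378 and 448 CPM in the controls and at 395, 445, 443, 457, 438 and 293 CPM in LOS. LOS 6 alone was low, and the log2 fold change of -0.02 ± 0.12 became 0.08 without it. RPL26, near the same exit and known to bind p53 mRNA, did not follow the family: controls 1 to 5 stood at 481, 478, 414, 493 and 411 CPM and LOS 1 to 6 at 438, 459, 588, 400, 539 and 490 CPM. Control 4, low for most members, was the highest control here, and the log2 fold change was 0.08 ± 0.11.

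Genes with an L suffix are paralogs of a ribosomal protein gene. RPL3L, the striated muscle form of RPL3, had at most 0.147 CPM in any library and did not pass the filter on low counts, while RPL3 had 616 to 869 CPM. RPL7L1, a large subunit assembly protein, averaged 32.0 ± 4.79 CPM in the controls and 30.3 ± 2.68 CPM in LOS (log2 fold change -0.08 ± 0.11), and its parent RPL7 512 ± 44.3 CPM and 548 ± 52.1 CPM (0.10 ± 0.10). RPL22L1 averaged 62.0 ± 7.91 CPM and 68.5 ± 6.50 CPM (0.15 ± 0.11), and RPL22 36.0 ± 4.79 CPM and 37.7 ± 4.25 CPM (0.07 ± 0.11). RPL22L1 thus took more reads than its parent in every fetus, which says nothing of transcript numbers without lengths.

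RPL26L1 stood at 15.6, 11.5, 16.0, 10.9 and 12.6 CPM in the controls and 11.2, 18.0, 17.6, 18.0, 18.2 and 14.0 CPM in LOS (0.29 ± 0.16). LOS 2 to 5 lay above all controls, and LOS 1 and LOS 6 among them. RPS27L, a p53 target in human cells, averaged 63.6 ± 9.31 CPM in the controls and 66.4 ± 7.91 CPM in LOS (0.08 ± 0.11), and RPS27 166 ± 17.1 CPM and 182 ± 23.5 CPM (0.13 ± 0.11). None of the paralogs passed the test, and the pairwise correlation of the 4 tested paralogs over libraries had a median of 0.165. Their correlations with the mean of the other members ran from -0.183 (RPL7L1) to 0.757 (RPL26L1), with RPL22L1 at 0.234 and RPS27L at 0.480.

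RPL12, a protein at the base of the stalk, stood apart from all other members. At its annotated place (chromosome 11, 98179657 to 98183844, minus strand) it had 11.2, 10.5, 294, 11.3 and 14.5 CPM in controls 1 to 5 and 255, 308, 12, 12.5, 12.1 and 14.4 CPM in LOS 1 to 6. The values fell at 255 to 308 CPM in 3 libraries and at 10.5 to 14.5 CPM in 8, with none between, and both levels occurred in both groups. The log2 fold change was -0.79 ± 2.11 (SE), and its sign turned in other fits: it was 1.83 without control 3 and 0.84 with limma voom.

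Among 1706 rows with a mean of at least 100 CPM, the row whose CPM correlated most negatively with those of RPL12 over the 11 libraries was the assembled locus MSTRG.9488 (r = -0.917), chosen after its values were seen. This locus spans 633 bp on chromosome 10 (83129251 to 83129883, minus strand). It had 372, 395, 204, 348 and 393 CPM in the controls and 179, 244, 454, 421, 456 and 427 CPM in LOS, lowest in the 3 libraries where RPL12 was high. The sum of both rows was 359 to 552 CPM in every library, and averaged 411 ± 52.7 CPM (SD, n = 5) in control libraries and 466 ± 45.0 CPM (SD, n = 6) in LOS. RPL12 reads with an assigned allele numbered 42, 45, 65, 99 and 65 in controls and 77, 56, 11, 14, 43 and 53 in LOS, and did not show the 2 levels: control 4 had 99 such reads at 11.3 CPM, and control 3 had 65 at 294 CPM. No sequence was compared between the 2 rows, and what sets the level of RPL12 was not tested.

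**Figure D4:**
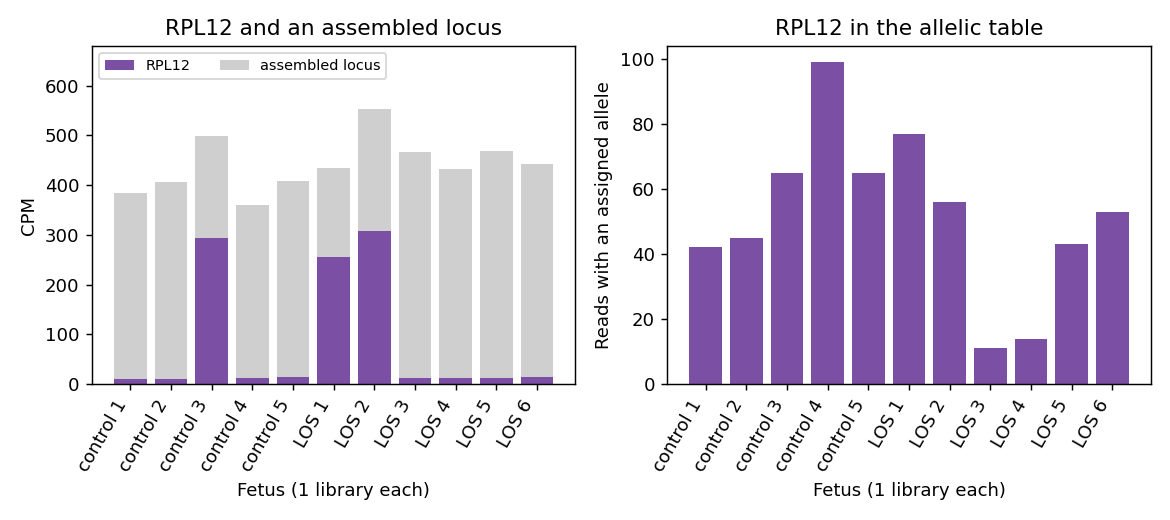
Left, CPM of RPL12 stacked on those of the assembled locus on chromosome 10 in each library; right, RPL12 reads with an assigned parental allele in the same libraries. RPL12 is at 255 to 308 CPM in control 3, LOS 1 and LOS 2 and at 10.5 to 14.5 CPM elsewhere, while the summed height stays between 359 and 552 CPM.

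The sexes were compared because 3 members, RPL10, RPS4X and RPL39, lie on the X chromosome. Of the 80 members, 58 were higher in males (beside 49.9% of all genes) and 22 lower, with a median log2 difference (male minus female) of 0.03. The edgeR quasi-likelihood test, adjusted after Benjamini-Hochberg, called 0 members, beside 8 of 16946 genes (0.0472%), with 0 members at an unadjusted p under 0.05, and DESeq2 also called 0 members. The direction was not stable: 22 members were higher in males without LOS 1, and 27 when libraries were scaled by their totals.

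RPL10 (chromosome X, 37451253 to 37453614), among the last proteins to join the large subunit, stood at 847, 871, 1001, 879 and 941 CPM in controls 1 to 5 and at 856, 1003, 994, 1023, 1111 and 1080 CPM in LOS 1 to 6. It averaged 914 ± 77.5 CPM in females and 1006 ± 86.2 CPM in males, and the sexes overlapped (log2 difference 0.15 ± 0.08). RPS4X, whose human copy escapes X inactivation, averaged 667 ± 83.9 CPM in females and 676 ± 44.0 CPM in males (0.03 ± 0.10), and this difference was -0.02 with library totals and -0.03 without LOS 1. RPL39, a short protein in the exit tunnel, averaged 246 ± 34.8 CPM and 262 ± 22.1 CPM (0.10 ± 0.10). For the LOS comparison the same genes had log2 fold changes of 0.17 ± 0.08, 0.12 ± 0.09 and 0.10 ± 0.10, within the range of the autosomal members.

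The LOS difference was also fitted in each sex. The fitted effect was above 0 for 76 members in females and for 76 in males, with medians of 0.15 and 0.16. The difference between these effects (male minus female) was above 0 for 48 members with a median of 0.03, and single libraries turned this balance: it was above 0 for 15 members without LOS 1 (median -0.10), for 27 without control 2 (-0.06), for 28 without control 4 (-0.07) and for 58 without LOS 2 (0.12). The edgeR test of the group by sex interaction called 0 of 80 members and 0 of 17583 genes (0%). RPL12 was the only member with an unadjusted p under 0.05; its adjusted p in the edgeR fit was 0.921. Its fitted effect was 4.14 in females and -3.03 in males, since its high libraries were LOS females 1 and 2 and the control male 3. RPL22L1 had effects of 0.34 in females and 0.00 in males, RPL15 of -0.05 and 0.30, and RPS28 of 0.02 and 0.36, none of them past the test of the difference. With single libraries left out, the male minus female difference ran from -0.49 (without control 1) to -0.21 (without control 2) for RPL22L1, from 0.12 (without control 2) to 0.53 (without control 1) for RPL15 and from 0.13 (without LOS 1) to 0.60 (without LOS 2) for RPS28.

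Because the fetuses were breed hybrids, reads over sites where the parents differ could be assigned to the maternal or paternal allele. The parental alleles thus also differ by breed. Effects of the parent, of the breed's sequence and of read mapping were not told apart here. Of the 81 members, 50 occur in the allelic table of 9716 genes and 25 had enough reads for the test, with 232 to 26138 reads per gene over all fetuses. X-linked genes were not part of this test. All allelic reads together were 50.5% to 50.9% maternal per library. Of the 25 members, 17 had more maternal reads in the fit, as did 46.6% of all tested genes, and 8 had more paternal reads. The edgeR quasi-likelihood test, adjusted after Benjamini-Hochberg, called 5 members with more maternal reads (10.2% of 5700 genes were called so) and 3 with more paternal reads (10.3%). Intervals below are exact 95% Clopper-Pearson intervals and cover counting error only, as reads without molecular identifiers are not independent molecules.

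RPS6 leaned to the paternal allele in 11 of 11 fetuses, with 42.0% maternal of 5175 reads (adjusted p = 6.29e-06 by edgeR). Its maternal share was 46.8%, 41.5%, 39.8%, 41.6% and 44.2% in controls 1 to 5 and 37.5%, 46.1%, 42.0%, 44.0%, 40.8% and 37.7% in LOS 1 to 6. The fetus nearest to balance was control 1 (interval 41.9% to 51.7%, 417 reads), and the groups overlapped. RPL13A had more paternal reads in 11 of 11 fetuses too, with 43.7% maternal of 4711 reads. Its maternal share ran from 36.8% (control 3, interval 31.6% to 42.4%) to 49.1% (LOS 2, interval 44.1% to 54.1%). RPL8 leaned the other way in 11 of 11 fetuses, from 50.1% maternal in LOS 3 (interval 46.1% to 54.0%) to 59.9% in LOS 6 (interval 56.4% to 63.4%). In these 3 genes every fetus lay on the same side of 50%, RPL8 in LOS 3 by a single read.

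In 3 further called genes the share went with the number of reads a fetus had. RPL21 was 73.7% to 79.2% maternal in control 3, control 5, LOS 1, LOS 2, LOS 4 and LOS 6, which had 167 to 412 reads each. In the other 5 fetuses, with 6 to 115 reads, it was 33.3% to 54.5%. RPLP2 was 49.2%, 44.6% and 43.2% maternal in control 5, LOS 3 and LOS 5, with 377 to 708 reads, and 11.1% to 40.0% in the other 8, with 27 to 109 reads. It thus lay below 50% in 11 of 11 fetuses, as RPS6 and RPL13A did. RPL7A was 49.0% maternal in control 4, with 674 reads (interval 45.1% to 52.8%), and 57.4% to 69.6% in 9 other fetuses with 23 to 173 reads; LOS 2 had none. In these genes the number of reads and the share changed together, in both groups, and the part of the sites each fetus carries was not tested.

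RPL22L1 had more maternal reads in 8 of 11 fetuses, with 56.6% maternal of 1874 reads. Its maternal share ranged from 49.1% (LOS 5) to 68.0% (control 1). RPL7L1 ranged from 49.2% to 63.3%, with an adjusted p of 0.0275 by edgeR that exceeded 0.05 when control 4, control 5, LOS 3 or LOS 5 was left out (0.0524 to 0.0624). The maternal share did not pass the test between LOS and control in any member: edgeR called 0 of 25, and 0 of 5700 genes (0%). The smallest adjusted p of a member by edgeR was 0.999. For RPL24, named after its values were seen, the unadjusted edgeR p was 0.0303, the only value under 0.05 among the 25 members.

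**Figure D5:**
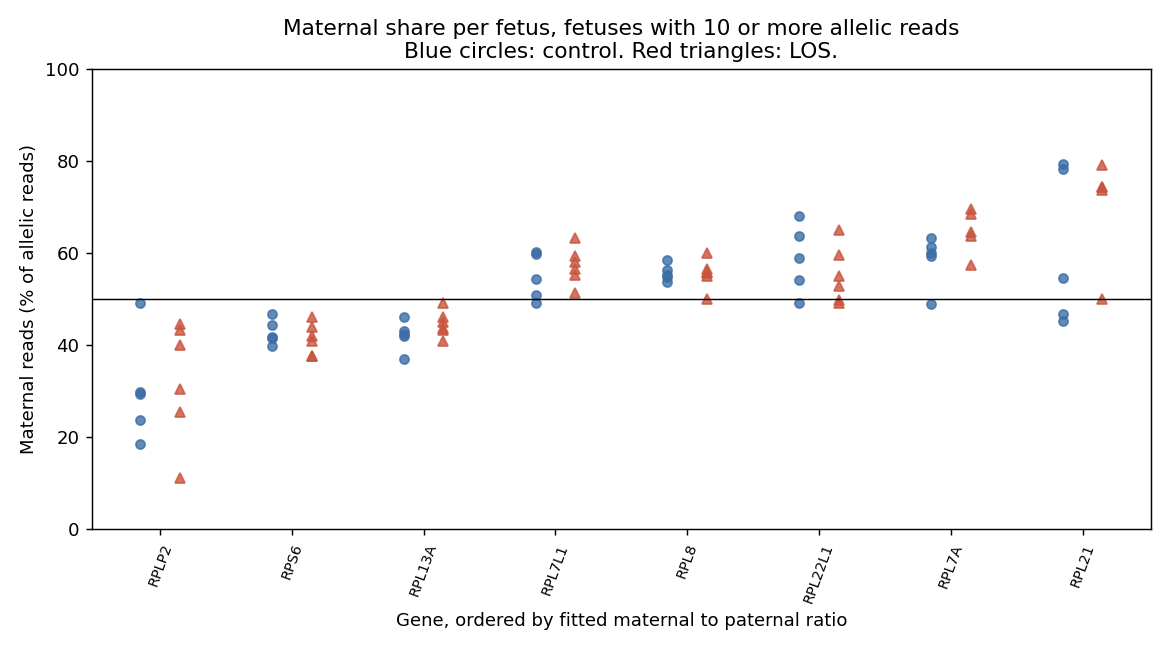
Maternal reads as a percentage of allelic reads per fetus for the 8 called ribosomal protein genes, controls as blue circles and LOS as red triangles, for fetuses with 10 or more reads. RPS6, RPL13A and RPLP2 lie below 50% in all fetuses, and RPL21 splits between fetuses near 75% and fetuses near 50%.

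Genes that work with the ribosomal proteins were counted in the same fit, and 0 genes passed the test in any of these lists. Of 18 other tested TOP mRNAs 17 were above 0, with a median log2 fold change of 0.11. EEF2, the factor that moves the ribosome along the mRNA, averaged 2426 ± 345 CPM in the controls and 2926 ± 474 CPM in LOS (0.28 ± 0.15), with LOS 1 lowest of all at 1990 CPM. RACK1, a scaffold on the small subunit, had a log2 fold change of 0.14 ± 0.11. FAU, which encodes a ribosomal protein fused to a ubiquitin-like protein and falls outside the symbol rule, stood at 0.01. Of the mitochondrial ribosomal protein genes 48 of 78 were above 0, with a median of 0.02.

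Genes for making ribosomes were mostly on the other side of 0. Of 50 ribosome assembly genes 15 were above and 35 below 0, with a median log2 fold change of -0.07, and of 13 RNA polymerase I genes 3 were above and 10 below. TSR2, the chaperone that delivers RPS26, stood at 21.1, 22.3, 21.9, 21.5 and 22.9 CPM in the controls and 20.3, 18.5, 18.3, 18.9, 19.4 and 17.8 CPM in LOS. All LOS libraries lay below all controls, LOS 1 included, as in 0.136% of all tested genes. TSR2 was named for the smallest p of its list. Its log2 fold change was -0.22 ± 0.08, with an edgeR quasi-likelihood p of 0.932 after Benjamini-Hochberg adjustment. UBTF, which activates ribosomal RNA genes, averaged 107 ± 3.47 CPM in the controls and 97.6 ± 7.01 CPM in LOS (-0.14 ± 0.07).

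Upstream and downstream regulators gave no call either. Of 12 genes of the nucleolar p53 circuit 10 were above 0, with a median of 0.24, and GADD45A, a p53 target, averaged 26.6 ± 6.50 CPM in the controls and 41.8 ± 10.1 CPM in LOS (0.63 ± 0.21). Of 22 mTOR and MYC regulators 15 were above 0, with a median of 0.09; AKT1S1, an inhibitor within mTOR complex 1, averaged 27.5 ± 2.68 CPM and 33.0 ± 2.31 CPM (0.25 ± 0.08). Of 31 proliferation genes 1 was above and 30 below 0, with a median of -0.42, and all 13 mitochondrially encoded genes were below 0 (median -0.15).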

How the data were processed

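Total RNA libraries were read as 150 bp pairs, per the labels' protocols. Build ARS-UCD1.2 and tools such as HISAT2 2.1.0, Salmon 0.11.1, StringTie 2.1.4 and edgeR 3.36.0 stand in the submitters' processing notes. The role of every tool, the rule of counting and any use of strand were not given in the sources used here. Gene expression comes from the authors' deposited table of expected counts, which are estimated reads per gene without normalisation. Of its values 71.2% are whole numbers, and of the members' values 34.2%, with no tolerance allowed. How reads shared with pseudogenes or near-identical copies were divided is not given, so values of single ribosomal protein genes are uncertain. Allelic values are the authors' deposited counts of reads per parental allele, per the file headers. The remaining table, of adjusted allelic values, was not used.

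Expected counts were rounded and fitted over the whole table in R 4.3.3 with edgeR 4.0.16: TMM factors, filterByExpr, quasi-likelihood tests with sex and group, and a Benjamini-Hochberg adjusted p under 0.05 as the call. CPM are counts scaled to TMM library sizes. The interaction fit added group by sex. Allelic counts were fitted with a term per library, allele, and allele by group, for autosomal genes with a mean of 20 or more reads per library and at least 10 in 3 or more libraries per group. The members and lists were chosen with earlier results of these data known. Named genes are the members with the most reads, the smallest p in each comparison and direction, the X-linked genes, the paralogs and their parents, the most and least variable, the most skewed alleles and a set chosen by role, with up to 3 genes of smallest p from each list. Alternatives were DESeq2 1.42.0, limma 3.58.1 (voom), other scaling, other filters, a fit without sex, a replicate block, and leaving out single libraries. Chosen after seeing the data were fits without assembled loci and without LOC112444681, ribosomal RNA and mitochondrial genes. Some genes that this rule names are not reported here. The model was tested on simulated data in which genes were drawn independently, which does not check the single calls reported here. Plots were made in Python 3.11.15 (matplotlib 3.10.9).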

Additional observations from a re-analysis of the deposited data

Results flagged for a closer look

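In 98 groups of 4 to 6 values examined (a gene or summed measure in the controls or in LOS), 9 held a library far from the others. For independent normal values the rule flags about 1 in 20. Here the genes share libraries and some, such as RPL12, were named for their large spread, so no excess can be read from this count. In controls, RPL12 in control 3 stood at 294 CPM with the next value at 14.5 CPM, and RPS24 in control 4 stood at 216 CPM with the next at 261 CPM. LOS 1 was far below the other LOS libraries for RPL19 (467 CPM), RPL31 (362 CPM), RPL5 (590 CPM) and RPS16 (418 CPM). The nearest LOS libraries for these genes stood at 547, 434, 765 and 534 CPM. LOS 1 was far above the other LOS libraries for the ratio of large to small subunit CPM (1.41, next 1.36) and for the summed proliferation genes (1052 CPM, next 573 CPM). The maternal share of RPL7A in control 4 was 49.0%, with the next control at 59.2%. The members vary together over libraries, so these results of LOS 1 are not independent of each other.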

How the results depend on the processing

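Over the other fits run (other tools, scalings and filters, leaving out the sex term or single libraries, and a replicate block) 76 to 79 of 80 members were higher in LOS, and 78 of 81 with no filter on low counts. The median log2 fold change ran from 0.0853 (scaling by library totals, with all genes at -0.0641) to 0.2002 (without LOS 1), and was 0.111 without LOS 2. No fit called a member for LOS, sex or their interaction. DESeq2 called 5 genes for LOS and 22 for sex; a filter of 50 counts in 5 libraries left 3 for sex. Leaving out each library gave 3 to 7 genes for sex and 0 to 1 for the allelic share (1 without control 2, LOS 1 or LOS 2). Signs turned for small or split values, and the cause was not tested. RPL12 was 0.844 with limma voom, 0.584 without the sex term and -1.995 to 1.827 with libraries left out; RPL7L1 was -0.130 to 0.00808, RPL35 -0.0662 to 0.0804, and the sex difference of RPS4X -0.0251 to 0.0660 with libraries left out and -0.0173 with library totals. The share difference was 0.145 to 0.320 percentage points. Replicate numbers in the labels were not taken as pairs of fetuses. After fitting sex and group, the correlations of same-numbered libraries were -0.18 to 0.12. These values cannot show whether same-numbered fetuses share a batch or other factor. With the replicate block, 79 members were higher (median 0.143, 0 called), and the log2 fold changes of RPL12, RPL7L1, RPL35 and RPL26 were 2.38, 0.0260, 0.0941 and -0.0273. Reads shared with gene copies were not assessed, and some fetuses had few allelic reads, such as 6 for RPL21 in LOS 5.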

Other observations

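A pair of rows with ribosomal protein symbols lay outside the symbol rule. The row named RPS4Y1 is placed on chromosome 23 (10550055 to 10565885, minus strand) and had 51.2 to 67.3 CPM in the controls and 49.3 to 68.9 CPM in LOS. Females averaged 58.3 ± 6.29 CPM and males 60.7 ± 8.05 CPM, so this row had reads in both sexes. RPL36AL on chromosome 10 (42657334 to 42659076, minus strand) averaged 54.6 ± 4.21 CPM in the controls and 56.5 ± 7.34 CPM in LOS. The member row RPL36A, X-linked in human, is placed on chromosome 15 (53690312 to 53690723, plus strand) and averaged 83.8 ± 11.1 CPM in the controls and 94.1 ± 14.3 CPM in LOS. These rows were picked after their values were seen.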
